A study of Mus musculus with 2 samples.

Results

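The receptors for the constant part of immunoglobulin G (IgG), with their signaling chain and the neonatal Fc receptor, were followed as a set of 6 genes among the 33696 genes listed in the series, chosen by symbol: Fcgr1 (ENSMUSG00000015947), Fcgr3 (ENSMUSG00000059498), Fcgr4 (ENSMUSG00000059089), Fcgr2b (ENSMUSG00000026656), Fcer1g (ENSMUSG00000058715) and Fcgrt (ENSMUSG00000003420). All 6 were present in the count matrices of both libraries. The data were single-cell RNA-sequencing counts (unique molecular identifiers, UMIs, each a captured 3′ end of an mRNA) from CD45+ cells that were sorted out of the thalamus. The C57B6/J mice had undergone cortical ablation injury (CAI), the surgical removal of sensorimotor cortex. From day 7 to day 19 after CAI, antibody was infused into the thalamus through a cannula at 1.0 µg/µl, and cells were collected on day 21. The control Ab group received normal rat IgG, and the anti-CD9 Ab group received clone KMC8, a rat antibody to the tetraspanin CD9, so both groups were injured and both received rat immunoglobulin. Each group was 1 library, and thalamus libraries of the study were pools of 4 mice. The reporting summary of the study gives an age of 12 weeks. Most experiments of the study used females, and its methods give no separate sex for these libraries. Antibody, pool of mice and library therefore cannot be told apart, no test between the groups was possible, and every interval below is a 95% interval of the UMI counts that covers counting error only.

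Fcγ receptors bind IgG that has coated a target and thereby couple antibody to phagocytosis, cytotoxicity and cytokine release in myeloid cells. FcγRI (Fcgr1, high affinity), FcγRIII (Fcgr3) and FcγRIV (Fcgr4) are activating receptors whose surface expression and signal depend on the FcRγ chain (Fcer1g), which carries an ITAM, the tyrosine motif that recruits the kinase Syk. FcγRIIb (Fcgr2b) is the inhibitory receptor, carries an ITIM that recruits the phosphatase SHIP, and sets the threshold at which the activating receptors signal. FcRn (Fcgrt), which pairs with β2-microglobulin, works inside the cell and returns IgG from endosomes instead of triggering effector functions. Microglia, the resident macrophages of the brain, and macrophages that enter after injury carry Fcγ receptors of both signs, neutrophils mainly Fcgr3 and Fcgr4, NK cells Fcgr3, and B cells Fcgr2b alone. Before the sort, the cells had been incubated with clone 93, an antibody that blocks the FcγRII and FcγRIII proteins, which does not enter the RNA counts.

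The upstream sequences of 3 receptor genes, picked by their ratios between the libraries, are shown as description. No result below depends on these sequences, and a link between sequence and ratio was not tested. Fcgr4 and Fcgr2b were the members furthest apart between the libraries in microglia-like cells, and Fcgr1 is an activating receptor like Fcgr4 but differed little. Each run is the 250 bases before the annotated start of the gene, 5′ to 3′ on the strand of the gene, from RefSeq on GRCm38.p6, which is not the build of the counts. Capitals mark matches to the interferon-γ-activated site (GAS, TTCNNNGAA), the interferon-stimulated response element (ISRE, GAAA and GAAA spaced by 2 bases) or the core of the PU.1 motif (GAGGAA), each searched on both strands.
Fcgr4, chr1:171018676-171018925, + strand: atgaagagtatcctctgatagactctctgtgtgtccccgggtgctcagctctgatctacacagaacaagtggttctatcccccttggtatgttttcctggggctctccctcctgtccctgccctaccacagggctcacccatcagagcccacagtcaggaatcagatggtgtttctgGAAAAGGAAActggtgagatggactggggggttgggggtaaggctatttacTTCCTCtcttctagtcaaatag
Fcgr2b, chr1:170976072-170976321, - strand: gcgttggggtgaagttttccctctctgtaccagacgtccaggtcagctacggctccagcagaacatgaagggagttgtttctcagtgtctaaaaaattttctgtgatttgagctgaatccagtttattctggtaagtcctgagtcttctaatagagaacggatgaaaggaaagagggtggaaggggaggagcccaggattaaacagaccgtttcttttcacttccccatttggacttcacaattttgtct
Fcgr1, chr3:96293970-96294219, - strand: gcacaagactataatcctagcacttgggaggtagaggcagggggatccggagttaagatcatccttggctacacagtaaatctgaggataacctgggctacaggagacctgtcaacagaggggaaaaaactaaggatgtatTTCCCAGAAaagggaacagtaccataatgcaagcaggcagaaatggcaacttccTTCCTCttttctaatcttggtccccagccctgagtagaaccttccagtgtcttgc
The Fcgr4 window held an ISRE match 63 bases and, on the opposite strand, a PU.1 core 16 bases before the start. The Fcgr1 window held a GAS match 100 bases and a PU.1 core 49 bases before the start. None of these motifs was found in the windows of Fcgr2b, Fcer1g and Fcgrt, and both annotated starts of Fcgr3 had only the PU.1 core. Of 32851 windows of that length, 7.02% held the GAS letters, 2.98% the ISRE letters and 23.3% the PU.1 core, so a match describes the letters and is not evidence of binding.

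The inhibitory Fcgr2b and the activating Fcgr3 are near-identical over part of their extracellular coding sequence, which matters for counting because these 2 genes sit on opposite sides of the activating to inhibitory comparison. In the longest annotated transcripts, 5 stretches of at least 31 bases, from 35 to 129 bases long, were identical in both, and no other pair among the 15 pairs of members shared a stretch of that length. The longest is shown in full, in the direction of both transcripts.
Shared by Fcgr2b and Fcgr3: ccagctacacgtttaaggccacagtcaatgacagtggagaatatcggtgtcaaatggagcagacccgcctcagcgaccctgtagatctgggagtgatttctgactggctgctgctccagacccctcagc
All 5 stretches were coding sequence. They lay at least 2786 bases from the 3′ end of Fcgr2b and at least 678 bases from that of Fcgr3, whereas the assay captures 3′ ends. Fcgr2b and Fcgrt overlap antisense genes (Gm38204 and Gm45669), and Fcgr3 and Fcgr4 each contain a small RNA gene on their own strand (Mir6546 and Gm26110). Whether the counting used strand was not given in the sources used here, so reads of those overlaps could not be assigned with certainty.

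The control Ab library held 12245 cell barcodes with 38042608 UMIs and the anti-CD9 Ab library 15173 barcodes with 40825201 UMIs. After the filters, 7467 and 9162 cells remained, with median depths of 1880 and 1419 UMIs per cell, and 54 barcodes occurred in both libraries. Cells were grouped into 25 clusters and named from marker genes, always as "-like" cells. The make-up of the libraries differed widely. Microglia-like cells numbered 1887 (25.3% of kept cells) in the control Ab library and 825 (9.005%) in the anti-CD9 Ab library, macrophage-like cells 208 (2.79%) and 1256 (13.7%), and neutrophil-like cells 66 (0.884%) and 2681 (29.3%). Dendritic cell-like cells numbered 122 and 380, T cell-like cells 2792 and 997, NK cell-like cells 94 and 67, B cell-like cells 30 and 98, and plasma cell-like cells 150 and 144. Astrocyte-like and oligodendrocyte-like cells were also present (430 and 78, and 302 and 93), although the sort was for CD45+ cells. The transcript of the antibody target, Cd9, was at 4062 CPM (UMIs per 1000000 UMIs of the summed cells) in microglia-like cells of the control Ab library and at 1797 CPM in those of the anti-CD9 Ab library.

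In microglia-like cells, 2 of the 6 genes were more than 2-fold higher in the anti-CD9 Ab library, Fcgr4 and Fcgr2b, and none was more than 2-fold lower. Of 11107 genes counted in 50 or more UMIs in all, 3.32% were at least 2-fold higher and 4.40% at least 2-fold lower, and the median log2 ratio of all of them was 0.02. The other members had log2 ratios between 0.12 and 0.39. Fcgr4, a receptor for antibody complexes that is largely limited to myeloid cells, was at 71.2 CPM (66.2 to 76.5; 751 UMIs) in the control Ab library and at 280 CPM (262 to 300; 837 UMIs) in the anti-CD9 Ab library, a log2 ratio of 1.98 (1.83 to 2.12). These intervals were far apart. Fcgr1, the high-affinity receptor, was at 244 CPM (235 to 254) and 320 CPM (300.2 to 341), a log2 ratio of 0.39 (0.28 to 0.50). Fcgr3, the low-affinity receptor that several IgG subclasses share, was at 470.0 CPM (457 to 483) and 558 CPM (532 to 586), a log2 ratio of 0.25 (0.17 to 0.33). The 3 activating receptors thus stood in the same direction but at very different distances, and Fcgr4 made up 9.07% of their summed UMIs in the control Ab library and 24.2% in the anti-CD9 Ab library.

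Fcgr2b, the inhibitory receptor, was at 228 CPM (219 to 237; 2405 UMIs) in microglia-like cells of the control Ab library and at 491 CPM (466 to 517; 1467 UMIs) in those of the anti-CD9 Ab library, a log2 ratio of 1.11 (1.013 to 1.20). The summed activating receptors were at 785 and 1159 CPM, a log2 ratio of 0.56 (0.50 to 0.62). The inhibitory transcript was therefore further from its control level than the activating sum, although Fcgr4 alone was further still. There were 3.44 activating UMIs (3.29 to 3.61) for each Fcgr2b UMI in the control Ab library and 2.36 (2.22 to 2.51) in the anti-CD9 Ab library, a log2 difference of -0.55 (-0.66 to -0.44). UMI counts are not scaled per transcript length, so such a ratio is compared between libraries only. The transcript of the shared chain, Fcer1g, was at 2085 CPM (2058 to 2113) and 2355 CPM (2300.4 to 2411), a log2 ratio of 0.18, and the number of Fcer1g UMIs for each activating receptor UMI was 2.65 and 2.03. Fcgrt was at 44.2 CPM (40.3 to 48.4) and 47.9 CPM (40.4 to 56.4), with an interval of the log2 ratio that included 0 (-0.15 to 0.39).

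Markers of other cell types were read beside these values, since free RNA from lysed cells is captured in every droplet. The 10 neutrophil markers, all with UMIs in both libraries, summed to 537 CPM in microglia-like cells of the control Ab library and to 1263 CPM in those of the anti-CD9 Ab library. If all of it were neutrophil RNA with the make-up of the neutrophil-like cells of the same library, it would carry 1.19 and 11.2 CPM of Fcgr4, against the 71.2 and 280 CPM measured. The 12 macrophage markers summed to 2327 and 1758 CPM, which would by the same reckoning carry 13.2 and 18.5 CPM of Fcgr4 and 25.7 and 44.8 CPM of Fcgr2b. That sum was set by Lyz2, a lysozyme gene that microglia also express (2088 and 1323 CPM), while the other 11 macrophage markers were each higher in the anti-CD9 Ab library, as Fcgr4 and Fcgr2b were. Those 11 summed to 239 and 435 CPM and would carry 12.1 and 13.6 CPM of Fcgr4 and 23.6 and 33.0 CPM of Fcgr2b. Of the 10 microglia markers 9 were lower, and their sum was 13520 CPM in the control Ab library and 8876 CPM in the anti-CD9 Ab library. T cell-like cells, in which these receptors were low, were read for comparison in each library. Whether their receptor counts were RNA of other cells was not tested. Fcgr4 was at 3.31 CPM in the T cell-like cells of the control Ab library and 10.4 CPM in those of the anti-CD9 Ab library, and Fcgr2b at 6.82 and 13.2 CPM.

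Shares of cells with a UMI were compared after each cell had been thinned to 1000 UMIs, which left out 41 and 20 shallower cells and kept 1846 and 805 microglia-like cells. Fcgr4 was detected in 6.39% of the cells (5.32 to 7.61) in the control Ab library and in 22.0% (19.2 to 25.0) in the anti-CD9 Ab library, against 0.24% and 1.30% of T cell-like cells. Without thinning, at median depths of 3186 and 3415 UMIs, 24.4% and 49.7% of microglia-like cells had an Fcgr4 UMI. Fcgr2b was detected in 19.99% (18.2 to 21.9) and 37.8% (34.4 to 41.2), Fcgr3 in 36.7% and 40.9%, Fcgr1 in 22.9% and 25.5%, Fcer1g in 80.9% and 85.0%, and Fcgrt in 4.77% and 5.47%. Detection of Fcgr2b and Fcgr4 thus differed between the libraries by more than counting error, whereas the intervals of the other 4 members overlapped, for Fcgr1 at 20.96 to 24.8 and 22.5 to 28.6. The share of all genes whose detection intervals lie apart was not computed, so nothing is read from the number of members. By CPM, the intervals of the log2 ratios of Fcgr1, Fcgr3 and Fcer1g (0.14 to 0.21 for the last) also lay above 0. Without thinning the shares were 54.6% and 69.9% for Fcgr2b, 74.2% and 77.6% for Fcgr3, 57.7% and 60.6% for Fcgr1, 94.2% and 98.2% for Fcer1g and 20.4% and 14.9% for Fcgrt.

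The share of microglia-like cells in which an activating receptor and Fcgr2b were detected together was 11.5% (10.1 to 13.03) in the control Ab library and 26.1% (23.1 to 29.3) in the anti-CD9 Ab library. Cells with an activating receptor alone made up 42.2% and 37.9%, cells with Fcgr2b alone 8.50% and 11.7%, and cells with neither 37.8% and 24.3%. Fcgr3 and Fcgr4, 2 activating receptors of different IgG subclass preference, were detected in the same cell in 2.33% and 10.1% of the cells. Joint detection was therefore more frequent in the anti-CD9 Ab library by more than counting error, whereas the intervals of the activating-only and Fcgr2b-only classes overlapped. A higher joint share also follows where each receptor alone is detected in more cells, as Fcgr2b and Fcgr4 were. The joint shares were not compared with those that the single shares would give.

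**Figure D1:**
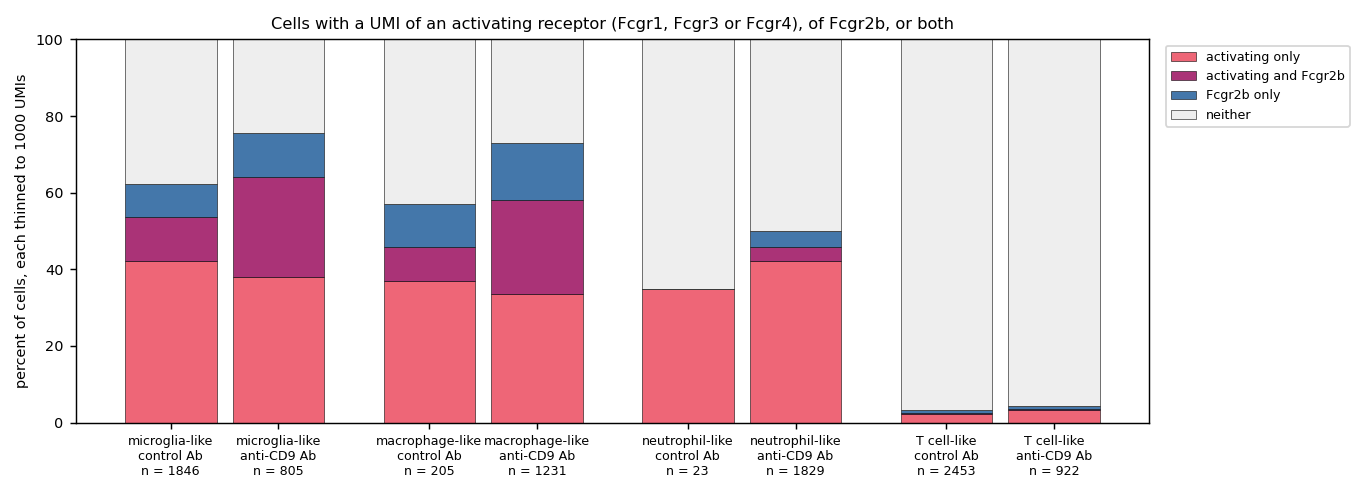
Share of cells (y axis, percent) with a UMI of an activating receptor only, of Fcgr2b only, of both or of neither, after each cell was thinned to 1000 UMIs. Each bar is 1 cell type in 1 library, with its number of cells below it. The class with both is 11.5% and 26.1% of microglia-like cells and 8.78% and 24.6% of macrophage-like cells in the control Ab and anti-CD9 Ab libraries, while 96.8% and 95.6% of T cell-like cells have neither.

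The difference in Fcgr2b and Fcgr4 was present in both clusters of microglia-like cells and in the sub-clusters that could be compared. Cluster 1, with homeostatic genes (Siglech, P2ry12) in the lead, numbered 974 and 499 cells, and cluster 5, led by Lpl, Cst7 and Spp1, genes of reactive, lipid-handling microglia, 913 and 326. Fcgr4 was at 48.7 and 268 CPM in cluster 1 and at 84.3 and 297 CPM in cluster 5, so its level in the control Ab library was higher in the reactive cluster and the levels in the anti-CD9 Ab library lay close together. Fcgr2b was at 215 and 516 CPM in cluster 1 and at 236 and 458 CPM in cluster 5. Among the 9 of 10 finer sub-clusters with at least 20 cells in each library, Fcgr2b and Fcgr4 were higher in the anti-CD9 Ab library in 9 of 9, each with an interval above 0. Their log2 ratios ran from 0.58 to 1.47 for Fcgr2b and from 0.64 to 2.78 for Fcgr4. The smallest Fcgr2b ratio was in sub-cluster 0 (Lpl, Fgf13), and the largest of both genes was in sub-cluster 4, led by Cst3, Gpr34, P2ry12 and Tmem119. Sub-cluster 8, led by the chemokine Ccl12 and the interferon-stimulated genes Ifit2 and Mx1, had the highest Fcgr4 level of both libraries among the 9, at 162 CPM from 17 UMIs in the control Ab library and 582 CPM from 68 UMIs in the anti-CD9 Ab library.

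Fcgr1 and Fcgr3 did not follow that pattern. The interval of Fcgr1 lay above 0 in 2 of the 9 sub-clusters and below 0 in 1, and that of Fcgr3 above 0 in 3, with log2 ratios from -0.32 to 0.74 for Fcgr1 and from -0.15 to 0.49 for Fcgr3. With both libraries given the same proportions of sub-clusters, the log2 ratio was 0.25 for Fcgr1 and 0.16 for Fcgr3, 1.11 for Fcgr2b and 2.04 for Fcgr4. Sub-clusters 5 and 7, which had the smallest Fcgr4 ratios (1.18 and 0.64), consisted mostly of predicted doublets, and without them the log2 ratio of Fcgr4 over microglia-like cells was 2.16.

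**Figure D2:**
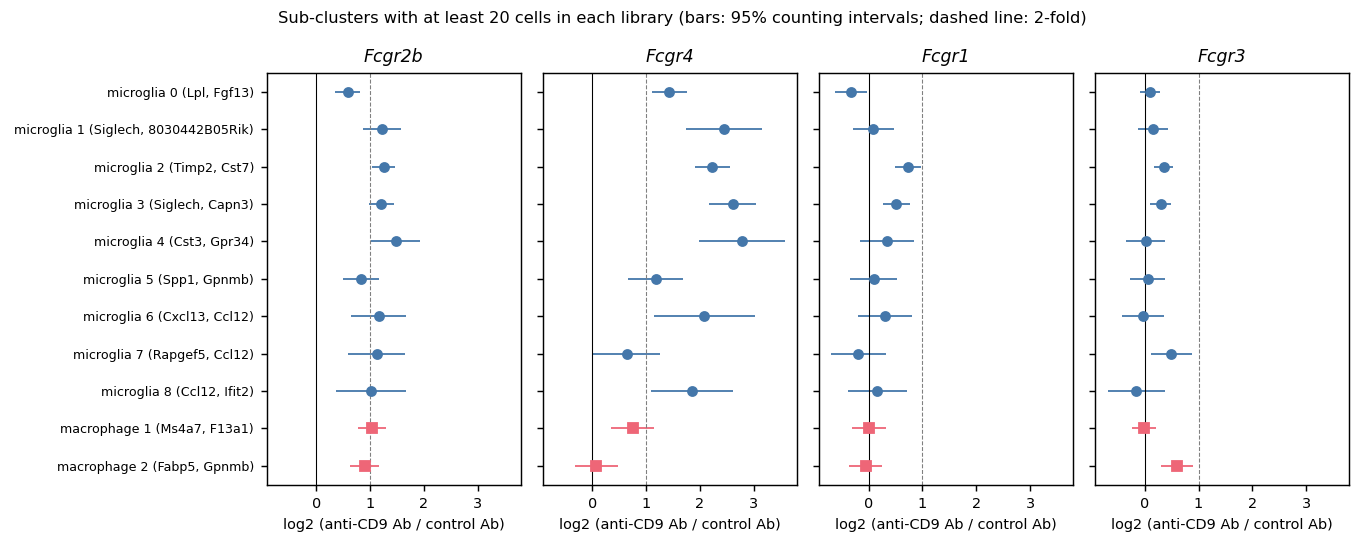
Log2 ratio of anti-CD9 Ab to control Ab (x axis) of 4 receptor genes in 9 microglia-like (circles) and 2 macrophage-like (squares) sub-clusters with at least 20 cells in each library, named by 2 leading genes (y axis). Bars are 95% counting intervals and the dashed line is 2-fold. All Fcgr2b points lie between 0.58 and 1.47 and the microglia-like Fcgr4 points between 0.64 and 2.78, whereas the Fcgr1 and Fcgr3 points lie on either side of 0.

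In macrophage-like cells, Fcgr2b was more than 2-fold higher and Fcgrt more than 2-fold lower in the anti-CD9 Ab library, 1 member in each direction. The background there was wider, with 8.17% of 9058 genes at least 2-fold higher and 6.48% at least 2-fold lower, and a median log2 ratio of -0.02. Fcgr2b was at 261 CPM (235 to 290; 354 UMIs) and 630 CPM (611 to 649; 4191 UMIs), a log2 ratio of 1.27 (1.11 to 1.43). Fcgr4 was at 134 CPM (116 to 155) and 260.3 CPM (248 to 273), a log2 ratio of 0.95 (0.73 to 1.17). Fcgr1 was at 230.3 and 308 CPM and Fcgr3 at 311 and 389 CPM, with log2 ratios of 0.42 (0.25 to 0.59) and 0.32 (0.17 to 0.47). The Fcgr3 ratio depended on how the cells were chosen, at 0.51 with each cell weighted equally, 0.59 with up to 5% mitochondrial counts, 0.70 without integration and 0.74 with cells typed one by one. The activating sum was at 675 and 957 CPM, and the number of activating UMIs for each Fcgr2b UMI was 2.58 (2.28 to 2.93) and 1.52 (1.46 to 1.58), a log2 difference of -0.77 (-0.95 to -0.58). As in microglia-like cells, the inhibitory receptor was further from its control level than the sum of the activating ones.

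Fcer1g in macrophage-like cells was at 3467 and 4559 CPM, a log2 ratio of 0.39 (0.35 to 0.44), with 5.13 and 4.76 Fcer1g UMIs for each activating UMI. Fcgrt was at 22.1 CPM (30 UMIs) and 10.4 CPM (69 UMIs), a log2 ratio of -1.09 (-1.71 to -0.48), which rests on the fewest UMIs of all members in these cells. It was not past 2-fold with up to 5% mitochondrial counts (-0.70), without integration (-0.72) or with cells typed one by one (-0.44). After thinning, Fcgr2b was detected in 41 of 205 cells (20%, 14.8 to 26.1) and 39.3% (36.6 to 42.1) of 1231 cells, Fcgr4 in 11.7% and 21.4%, Fcgr3 in 25.9% and 32.4%, Fcgr1 in 18.05% and 27.9% and Fcer1g in 93.7% and 96.8%. Unthinned, at median depths of 6049 and 5024.5 UMIs, the shares were 69.7% and 82.9% for Fcgr2b, 46.2% and 57.8% for Fcgr4 and 70.2% and 75.1% for Fcgr3, and for Fcgr1 the order was the other way round, at 69.2% and 62.9%. The neutrophil markers summed to 307 and 813 CPM in macrophage-like cells, which would carry 0.68 and 7.20 CPM of Fcgr4. The 10 microglia markers, all lower in the anti-CD9 Ab library, summed to 3820 and 821 CPM there. If all of it were microglia RNA, it would carry 12.5 and 4.43 CPM of Fcgrt against the 22.1 and 10.4 CPM measured, 20.1 and 25.9 CPM of Fcgr4, and 64.4 and 45.4 CPM of Fcgr2b. The Fcgrt difference in macrophage-like cells thus moved with microglia markers, whose part in it was not tested.

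The macrophage-like cells of the 2 libraries fell largely into different sub-clusters. Sub-cluster 0, led by Saa3, Arg1 and Nos2, held 11 control Ab and 422 anti-CD9 Ab cells, sub-cluster 3, led by the monocyte genes Chil3, Plac8 and Ccr2, held 14 and 167, and sub-cluster 4, led by Chil3, Nos2 and the interferon-induced chemokine Cxcl9, held 2 and 148. Only sub-clusters 1 (Ms4a7, F13a1; 61 and 301 cells) and 2 (Fabp5, Gpnmb; 101 and 179 cells) had at least 20 cells in each library. In these, the log2 ratios of Fcgr2b were 1.04 and 0.90, those of Fcgr4 0.75 and 0.07, those of Fcgr3 -0.02 and 0.60, and those of Fcgr1 0.0041 and -0.05. Fcgr2b was thus higher within both sub-clusters, each with an interval above 0, while the intervals of Fcgr1 included 0 (-0.31 to 0.32 and -0.36 to 0.25). Across the sub-clusters of the anti-CD9 Ab library alone, Fcgr1 ran from 224 CPM in sub-cluster 1 to 433 CPM in sub-cluster 3 and 593 CPM in sub-cluster 4, Fcgr4 from 142 CPM in sub-cluster 2 to 484 CPM in sub-cluster 3, and Fcgr2b from 449.9 CPM in sub-cluster 2 to 833 CPM in sub-cluster 0. With equal sub-cluster proportions, the log2 ratio of Fcgr4 was 0.37 instead of 0.95, a value that draws on control Ab sub-clusters of 2 to 19 cells, and that of Fcgr2b was 1.25.

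Neutrophil-like cells offered little comparison, with 66 cells and 75321 UMIs in the control Ab library. There, Fcgr4 was at 186 CPM (101.6 to 312; 14 UMIs) and in the anti-CD9 Ab library at 371 CPM (351 to 392; 1267 UMIs), a log2 ratio of 1.00 (0.24 to 1.76), and Fcer1g was at 2868 and 5057 CPM, a log2 ratio of 0.82 (0.62 to 1.012). The intervals of Fcgr3 (239 and 332 CPM), Fcgr2b (53.1 and 86.1 CPM, from 4 control UMIs) and Fcgr1 (66.4 and 32.8 CPM, from 5 control UMIs) included no difference. Fcgr1 was the 1 member of the 5 with enough UMIs that was past 2-fold, in the lower direction, where 22.5% of 5623 genes were 2-fold lower and 13.1% 2-fold higher and the median log2 ratio was -0.29. These shares depend on the UMI limit, since a control Ab count of 0 was read as 3 counts, here 39.8 CPM. With at least 200 UMIs per gene, 11.4% of 2537 genes were 2-fold lower and 20.1% 2-fold higher, with a median of 0.02. The share of lower genes at 50 UMIs is therefore no firm background for the Fcgr1 value. Macrophage markers in neutrophil-like cells summed to 9440 and 2691 CPM, though 7 of the 12 were higher in the anti-CD9 Ab library. Microglia markers summed to 1885 and 428 CPM. How much of the Fcgr1 counts of neutrophil-like cells was RNA of other cells was not tested. In the anti-CD9 Ab library, which held nearly all of these cells, Fcgr4 made up 50.4% of the activating UMIs of neutrophil-like cells, against 27.2% in macrophage-like and 24.2% in microglia-like cells. There, 8.54 activating UMIs (7.57 to 9.67) were counted for each Fcgr2b UMI, against 1.52 in macrophage-like cells of the same library. The 2 neutrophil-like clusters of that library differed. Fcgr4 was at 410.1 CPM in cluster 3, led by Cxcl2, Ccl4 and the interferon-induced Rsad2 and Cxcl10, and at 318 CPM in cluster 4, led by Retnlg, S100a8 and S100a9, while Fcgr3 was at 259 and 431 CPM.

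Fcgrt had its highest level in dendritic cell-like cells, at 110.0 CPM (86.4 to 138) in the control Ab library and 101 CPM (86 to 117) in the anti-CD9 Ab library, a log2 ratio of -0.13 (-0.52 to 0.27). FcRn delivers IgG complexes for antigen presentation in such cells. The level was carried by cluster 16, led by Wdfy4, Flt3 and Xcr1, genes of cross-presenting dendritic cells (118 and 133 CPM), while cluster 19, led by the migratory genes Ccr7 and Fscn1, had 17.9 CPM from 1 UMI and 29.3 CPM. The Fcγ receptors were low in these cells but higher in the anti-CD9 Ab library, Fcgr1 at 37.2 and 99.9 CPM, Fcgr4 at 10.4 and 60.6 CPM, Fcgr2b at 46.1 and 83.0 CPM and Fcgr3 at 40.1 and 64.8 CPM. Fcgr1 and Fcgr4 were the 2 of 6 members past 2-fold, where 7.0% of 6298 genes were 2-fold higher and 3.52% lower. The macrophage markers in dendritic cell-like cells were higher too, at 3086 and 5592 CPM, which would carry 17.6 and 59.0 CPM of Fcgr4 and 30.1 and 69.8 CPM of Fcgr1 if all of it were macrophage RNA. The Fcgr4 values of dendritic cell-like cells therefore cannot be told apart from macrophage RNA, nor can the Fcgr1 value of the control Ab library. Fcgrt, which was lower in macrophage-like cells, was not in that position. Fcgr1 in the anti-CD9 Ab library was at 99.9 CPM (85.3 to 116), above the 69.8 CPM reckoned. Microglia markers, at 1084 and 501 CPM in dendritic cell-like cells, were not part of that reckoning, and the source of this Fcgr1 was not tested. In macrophage-like cells of that library, Fcgr2b (630 CPM) and Fcgr3 (389 CPM) lay above Fcgr4 (260.3 CPM). The same macrophage RNA would thus carry more of each than of Fcgr4. The Fcgr2b and Fcgr3 values of dendritic cell-like cells therefore cannot be told apart from macrophage RNA either.

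Among lymphocytes, NK cell-like cells had Fcer1g at 2871 and 2522 CPM, above microglia-like cells in the control Ab library and within counting error of them in the anti-CD9 Ab library, with a log2 ratio of -0.19 (-0.38 to 0.0021). Their Fcgr3, the receptor of antibody-dependent killing, was counted in 13 and 8 UMIs (68.3 and 53.2 CPM), their Fcgr4 in 1 and 0, and their Fcgrt in 0 and 0, where 3 counts would have been 15.8 and 19.96 CPM. B cell-like cells had Fcgr2b at 117 and 130 CPM from 12 and 27 UMIs, and plasma cell-like cells at 59.98 CPM (48.2 to 73.8) and 52.8 CPM (41.7 to 66.0), without a difference beyond counting error in either. Fcgr3 was at a like level in B cell-like cells, at 126 and 57.6 CPM from 13 and 12 UMIs. Macrophage markers summed to 3233 and 2832 CPM in B cell-like cells, and microglia markers to 2340 and 461 CPM. How much of their receptor counts was RNA of other cells was not tested. Within the intervals of plasma cell-like cells (log2 ratio -0.62 to 0.26), Fcgr2b had no difference of the size seen in microglia-like and macrophage-like cells. Fcgr2b was higher, however, in T cell-like cells (log2 ratio 0.95, 0.28 to 1.63) and in astrocyte-like cells (1.85, 0.94 to 2.75). Over the 10 cell types, its interval lay above 0 in 5 and below 0 in none. Besides microglia-like and macrophage-like cells, these were T cell-like, astrocyte-like and dendritic cell-like cells, where the summed macrophage markers were higher too. For T cell-like cells the sums were 881 (control Ab) and 1454 CPM (anti-CD9 Ab), and for astrocyte-like cells 311 and 4076 CPM. Those of dendritic cell-like cells would carry 34.1 and 143 CPM of Fcgr2b, against the 46.1 and 83.0 CPM measured. Whether cells other than microglia-like and macrophage-like ones had an Fcgr2b difference of their own was not tested. In T cell-like cells all members were low, with Fcer1g at 98.4 and 212 CPM (log2 ratio 1.11). Fcer1g was the 1 of 4 members with enough UMIs past 2-fold there, where 3.61% of 9750 genes were at least 2-fold higher. Neutrophil markers in T cell-like cells summed to 217 and 942 CPM, beside the macrophage markers given above. How much of the Fcer1g counts in T cell-like cells was RNA of other cells was not tested. Fcgr4 in T cell-like cells had a log2 ratio of 1.65 (0.77 to 2.53) from 16 and 29 UMIs. In astrocyte-like cells, 2 of 2 members with enough UMIs were past 2-fold, Fcgr3 (35 and 15 UMIs) and Fcer1g (255 and 69 UMIs), where 3.63% of 3500 genes were at least 2-fold higher. Beside the macrophage markers given above, neutrophil markers in these cells summed to 116 and 1749 CPM. How much of their Fcgr3 and Fcer1g counts was RNA of other cells was not tested. Astrocyte-like and oligodendrocyte-like cells of the 2 libraries had 41.0 to 147 CPM of Fcgr2b and 12.8 to 63.2 CPM of Fcgr4, and the microglia markers found in them would carry 29.9 to 83.4 CPM and 9.33 to 47.6 CPM of these genes.

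**Figure D3:**
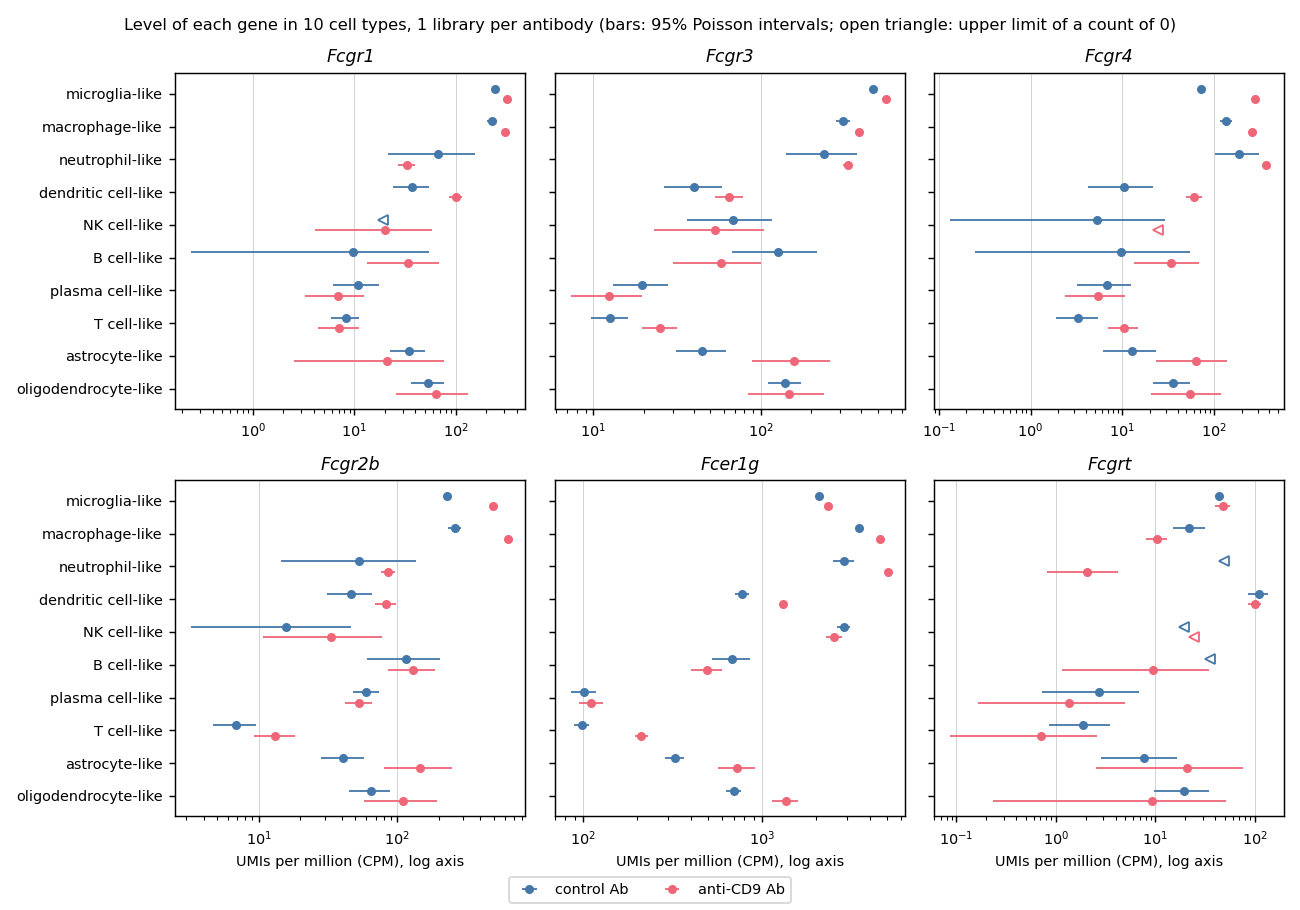
Level of each gene (x axis, CPM on a log axis that differs between panels) in 10 cell types (y axis) in the control Ab and anti-CD9 Ab libraries. Points are CPM of the summed cells of 1 library, bars are 95% Poisson intervals and open triangles mark the upper limit where no UMI was counted. Microglia-like, macrophage-like and neutrophil-like cells lie furthest right for Fcgr3 and Fcgr4, and NK cell-like cells lie beside them for Fcer1g (2871 and 2522 CPM), while B cell-like cells are among the higher types for Fcgr2b (117 and 130 CPM), and dendritic cell-like cells lie furthest right for Fcgrt (110.0 and 101 CPM).

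Over all kept cells, Fcgr4 was at 46.4 and 194 CPM, Fcgr2b at 136 and 304 CPM, Fcer1g at 1330 and 2942 CPM, Fcgr1 at 139 and 163 CPM, Fcgr3 at 257 and 277 CPM and Fcgrt at 27.7 and 19.02 CPM. These totals joined levels within cells with the number of cells of each type. The ratio of Fcer1g over all cells, log2 1.14, was larger than in microglia-like (0.18) or macrophage-like cells (0.39), and the cells that held its UMIs differed. Microglia-like cells held 66.3% of all Fcer1g UMIs in the control Ab library and 10.55% in the anti-CD9 Ab library, macrophage-like cells 14.2% and 45.5%, and neutrophil-like cells 0.651% and 25.9%. For Fcgr2b the share of microglia-like cells was 70.9% and 21.3% and that of macrophage-like cells 10.4% and 60.8%. For Fcgr4 microglia-like cells held 64.9% and 19.1%, macrophage-like cells 15.7% and 39.5%, and neutrophil-like cells 1.21% and 28.9%. Dendritic cell-like cells held 10.7% and 38.5% of the Fcgrt UMIs. In the anti-CD9 Ab library most Fcγ receptor transcripts thus lay outside microglia-like cells, with Fcgr1 (25.9%) and Fcgr3 (26.5%) keeping the largest share there among the Fcγ receptors.

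**Figure D4:**
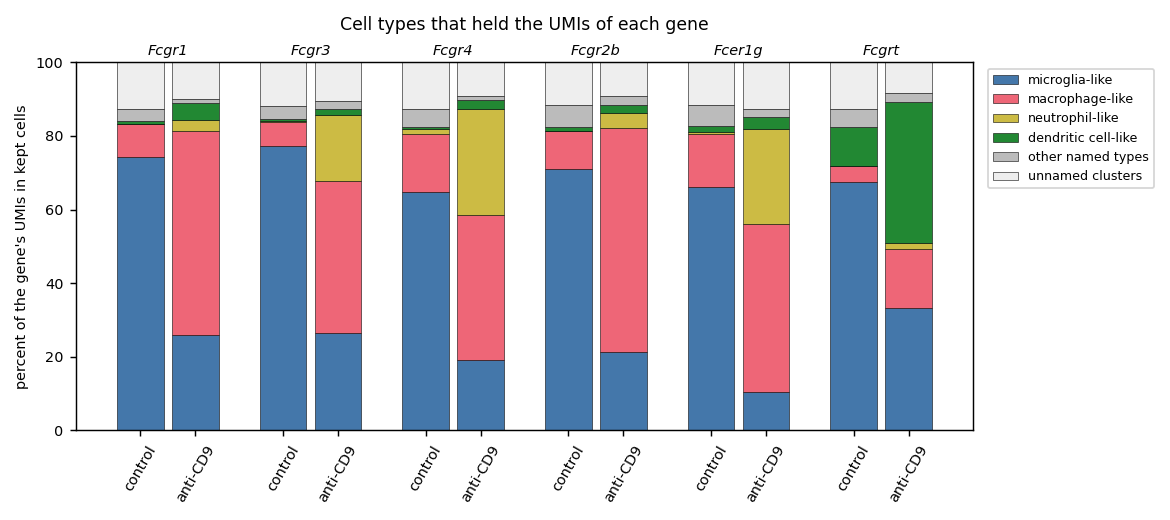
Percent of the UMIs of each gene in kept cells (y axis) that lay in microglia-like, macrophage-like, neutrophil-like, dendritic cell-like, other named and unnamed cells, in the control Ab and anti-CD9 Ab libraries (x axis). Microglia-like cells hold 64.9 to 77.3% of the UMIs of each gene in the control Ab library and 10.55 to 33.2% in the anti-CD9 Ab library, and Fcgrt is the gene with a large dendritic cell-like part. Unnamed cells include clusters whose nearest type was microglia.

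The genes downstream of the activating receptors were read as a list of 18 ITAM signaling genes. In microglia-like cells 15 of 18 were higher in the anti-CD9 Ab library, none past 2-fold, with a median log2 ratio of 0.36, where 47.9% of all 11107 genes were lower, 3.32% were at least 2-fold higher and the median was 0.02. Syk, the kinase that binds the FcRγ chain, was at 110.4 and 143 CPM (0.38), the adaptor Lcp2 at 188 and 288 CPM (0.62) and the exchange factor Vav3 at 11.1 and 21.4 CPM (0.95). The 3 that were lower were Fgr (-0.43), Lat2 (-0.36) and Pik3cg (-0.04). In macrophage-like cells 15 of 18 were higher, 2 past 2-fold, with a median of 0.51, where 51.7% of all 9058 genes were lower, 8.17% were at least 2-fold higher and the median was -0.02. Syk was there at 106 and 228 CPM (1.10; 0.86 to 1.35), Src at 3.69 and 12.3 CPM from 5 and 82 UMIs (1.74), Lat2 at 231 and 118 CPM (-0.96) and Pik3cg, a phosphoinositide kinase, at 43.6 and 82.5 CPM (0.92).

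The 12 inhibitory signaling genes gave no common direction in microglia-like cells, where 11 were measured, 5 higher and 6 lower, 1 past 2-fold (3.32% of all genes were), with a median of -0.06. Inpp5d, which encodes the phosphatase SHIP recruited by FcγRIIb, was at 1188 and 1384 CPM (0.22), and 3 more had the largest ratios, Pirb, an ITIM receptor, at 20.2 and 44.2 CPM (1.13), Lilrb4a, another, at 64.1 and 104 CPM (0.70) and the adaptor Dok3 at 17.9 and 27.1 CPM (0.60). In macrophage-like cells 9 of 12 were higher and 2 past 2-fold, against the 8.17% of all genes, with a median of 0.28, Pirb at 107 and 337 CPM (1.65), Dok2 at 7.38 and 25.6 CPM (1.79), the ITIM receptor Cd300a at 180.1 and 90.9 CPM (-0.99) and Inpp5d at 399 and 343 CPM (-0.22). Fcgr2b and its phosphatase thus had opposite signs in macrophage-like cells. Of the 5 NADPH oxidase genes, which make the oxidative burst that Fcγ receptors trigger, Cybb, the catalytic subunit, was at 128 and 266 CPM in microglia-like cells (1.06) and 798 and 1502 CPM in macrophage-like cells (0.91), whereas Cyba, its partner, was lower in both (-0.33 and -0.64). The cytosolic subunit Ncf4 was at 65.0 and 82.4 CPM (0.34) and 123 and 198 CPM (0.69), and Ncf1 at 216 and 288 CPM in microglia-like cells (0.42). The list medians were 0.34 and 0.13, with 3 of 5 higher in each cell type.

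Of 12 other Fc receptor genes, 3 had enough UMIs in microglia-like cells. Fcrls, a scavenger-like Fc receptor relative typical of microglia, was at 1174 CPM in the control Ab library and 344 CPM in the anti-CD9 Ab library (-1.77), and at 238 and 56.2 CPM in macrophage-like cells (-2.08). In microglia-like cells it thus lay in the direction opposite to Fcgr2b and Fcgr4. The microglia markers in macrophage-like cells would carry 332 and 31.8 CPM of Fcrls, so its level there cannot be told apart from microglia RNA. B2m, the partner of FcRn, was at 2930 and 3637 CPM in microglia-like cells (0.31) and 3953 and 3720 CPM in macrophage-like cells (-0.09). Transcripts of IgG heavy chains, which plasma cells make, were also counted in microglia-like cells, Ighg1 at 1.14 and 23.1 CPM (12 and 69 UMIs), Ighg2b at 89.6 and 6.36 CPM (945 and 19 UMIs) and Ighg2c at 5.97 and 5.69 CPM. In macrophage-like cells Ighg1 was at 1.48 and 18.6 CPM and Ighg2b at 6.64 and 7.06 CPM. Their source was not tested.

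Finally, the genes whose levels were most alike to each member over the 10 cell types of both libraries were listed by Pearson correlation of log2(CPM + 10) among 11134 genes. The 20 points share 2 libraries and differ in depth, so the values are descriptions. For Fcgr4 these were the complement receptor C5ar1 (0.94), Xdh and the complement gene C3 (0.93 each), and for Fcgr2b the macrophage marker Adgre1 (0.88), Fn1 (0.87) and Nrp2 (0.86). Fcgr3 was most alike to Itgam (0.96), the α chain of complement receptor CR3, followed by Lair1 and Lpcat2 (0.89 each), and Fcgr1 to Apobec1 (0.95), Acp2 and Atp6v0b (0.92 each). Fcer1g was most alike to Tyrobp (0.97), which encodes the other ITAM chain DAP12, then to Il10rb and Itgam (0.89 each), and Fcgrt to the dendritic cell factor Batf3 (0.96), Sult1a1 (0.91) and Cd36 (0.90). Among the members themselves, Fcgr3 and Fcgr4 were the most alike (0.86), and Fcer1g and Fcgrt the least (0.20).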

How the data were processed

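Per the labels, the libraries were made with 10x 3′ chemistry version 3.1. The deposited files are raw UMI counts per gene and barcode, 1 matrix for each antibody group, made by the authors with Cell Ranger. The submitters' processing notes name Cell Ranger 8.0.0 and genome build GRCm39, whereas the methods of the study name an earlier major version, 6, and an earlier build, and the file headers carry the former. Free RNA had not been removed. The members, gene lists and alternatives were chosen with earlier results of these data known, and the limits used to name clusters and the split that set NK cell-like cells apart were set after seeing the data.

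Cells with 200 to 7500 genes and at most 2% mitochondrial counts were kept, as in the methods of the study. They were integrated across the 2 libraries and clustered with Seurat 5.3.0 in R 4.3.3 (2000 variable genes without the members and lists, 30 components, resolution 0.8), and microglia-like and macrophage-like cells were clustered again at resolution 0.5, with borders between sub-clusters that shift with the rounding of the linear algebra, which was run on a single thread. Clusters were named where at least 50% and at least 3 of a type's fixed markers were raised. A cluster stayed unnamed with more than 50% predicted doublets or with 75% or more of a second type's markers raised. Low depth, or more markers of another type among the leading genes, could also leave it unnamed. A cluster led by Cd8b1, Gzma and Cd8a (291 and 87 cells), with 8 of 8 T cell markers raised, was thus unnamed and not among the T cell-like cells. Doublets were predicted from simulated doublets among nearest neighbours (scikit-learn 1.9.0; 731 and 1112 cells), kept, and left out as an alternative. Types with at least 30 cells in each library were compared. Unnamed clusters held 1318 and 2527 cells. Some of them had microglia as the nearest type and lay outside the microglia-like levels and shares. These were cluster 10 (333 and 202 cells) and cluster 18 (207 and 29), 98.7% of it predicted doublets. Also among them were cluster 22, led by Cxcl13, Spp1 and Cst7 (78 and 40), and cluster 23, with cycling genes such as Top2a in the lead (55 and 49).

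Summed counts were scaled to CPM in Python 3.11.15 (numpy 2.4.6, scipy 1.17.1) with exact Poisson intervals, and shares of thinned cells have exact Clopper-Pearson intervals, all at 95%. With 1 library per group there was no test, a difference was called at 2-fold among genes with at least 50 UMIs, and a count of 0 was read against a floor of 3 counts. The calculation of ratios was tested on simulated data. Listed genes named in the text were Syk and the 3 of each list with the largest ratio, of which 1 is not reported here, and Fgr, Inpp5d, Cyba, Ighg2c, Lat2 and Pik3cg in microglia-like cells were named after their values were seen.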

Additional observations from a re-analysis of the deposited data

Results flagged for a closer look

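Cells with 2 to 5% mitochondrial counts were left out of the comparisons above, and the differences in Fcgr2b and Fcgr4 were present among them too. Assigned to the same cell types, they numbered 654 and 436 microglia-like and 85 and 908 macrophage-like cells in the control Ab and anti-CD9 Ab libraries. In the microglia-like ones, Fcgr2b was at 207 and 437 CPM, a log2 ratio of 1.08 (0.94 to 1.21), and Fcgr4 at 82.8 and 310 CPM, a log2 ratio of 1.90 (1.71 to 2.10). In the macrophage-like ones, Fcgr2b was at 263 and 544 CPM, a log2 ratio of 1.05 (0.79 to 1.30), while Fcgrt was at 16.4 and 14.8 CPM (8 and 78 UMIs) with an interval that included 0. These cells come from the same 2 libraries and are not replicates.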

How the results depend on the processing

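The 11 alternatives for microglia-like and macrophage-like cells kept the direction of each member and of the 4 summed results. The log2 ratio of Fcgr2b stayed past 2-fold in all 11, at 1.07 to 1.16 in microglia-like and 1.15 to 1.32 in macrophage-like cells, and so did Fcgr4 in microglia-like cells (1.87 to 2.27). Fcgr4 in macrophage-like cells ran from 0.37 to 1.04 and passed 2-fold in 1 of 11, and Fcgrt there ran from -1.28 to -0.44 and passed in 8. With the same sub-cluster proportions, the activating sum was at 0.46 in microglia-like and 0.32 in macrophage-like cells, and the activating to inhibitory difference at -0.65 in microglia-like cells. In macrophage-like cells, the activating sum was at 0.65 without integration, 0.64 with each cell weighted equally and 0.64 with cells typed one by one, and the activating to inhibitory difference at -0.55 without integration and -0.57 with each cell weighted equally. Without thinning, the share of macrophage-like cells with Fcgr1 was lower in the anti-CD9 Ab library (difference of -6.33 percentage points, against 9.90 thinned), where median depth was 5024.5 against 6049 UMIs. With at least 200 UMIs per gene, genes past 2-fold numbered 192 instead of 369 higher and 208 instead of 489 lower in microglia-like cells, and 449 instead of 740 and 221 instead of 587 in macrophage-like cells, because fewer genes were counted. Leaving out sub-clusters mostly of predicted doublets and barcodes found in both libraries were alternatives chosen after seeing the data, as was reading macrophage markers without Lyz2. No paired analysis was possible because each group was 1 library.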
